A study of Mus musculus with 8 samples.

Results

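The 10 genes described here encode transcription factors of the naive pluripotent state in the mouse: Esrrb, Tfcp2l1, Tbx3, Klf2, Klf4, Klf5, Nr5a2, Prdm14, Zfp42 and Nr0b1. They were chosen by name, for their known role, and are 10 of the 22878 gene rows in the expression files. Tfcp2l1 stood in the files under its older symbol Tcfcp2l1. Their RNA was measured by RNA-Seq in 8 libraries of 5 mouse pluripotent lines. R1 is an embryonic stem cell (ESC) line and has 2 libraries. The other 4 lines are secondary induced pluripotent stem cells (iPSCs), reprogrammed from somatic cells of mice that had themselves been made wholly from iPSCs. Line 16-6 came from hematopoietic cells (mesoderm, 2 libraries), line 32 from adipocyte progenitor cells (mesoderm, 2 libraries), line S8 from epidermal cells (ectoderm, 1 library) and line T2 from stomach lining cells (endoderm, 1 library). All 4 iPSC lines carry doxycycline-inducible Oct4, Sox2, c-Myc and Klf4 transgenes, and doxycycline was withdrawn before colonies were picked. Reads from the Klf4 transgene and from the Klf4 gene therefore cannot be told apart in these values. The cells were grown on mitomycin-treated mouse embryonic fibroblasts (feeder cells) in medium with serum and leukemia inhibitory factor (LIF). Each origin is represented by 1 line, so origin and line cannot be told apart, and in S8 and T2 the line and its 1 library cannot be told apart either. The study's read counts list more reads, and a lower percentage uniquely mapped, for S8 and T2 than for R1, 16-6 and 32. Differences of S8 and T2 from the other lines therefore cannot be told apart from this difference in sequencing. The study's methods call the paired libraries biological replicates, while neither they nor the labels say whether separate cultures were taken, so p-values measure the spread between these libraries, which may be technical.

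The naive state is that of the preimplantation epiblast, and mouse ESCs hold it in culture. It rests on the core factors Oct4 (Pou5f1), Sox2 and Nanog together with an auxiliary ring of factors that respond to the culture signals. LIF acts through Stat3 on Klf4 and Tfcp2l1, loss of repression by Tcf7l1 releases Esrrb, and Klf2 is sensitive to Erk signalling. The ring is lost when cells move to the formative and primed states of the later epiblast, while Pou5f1 and Sox2 persist.

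The unit is FPKM, fragments scaled by transcript length and by the number mapped, as estimated by Cufflinks. Because the deposited values summed to far more than usual FPKM do, all were divided by 1 constant that brought the median library total to 1000000. After that, library totals ranged from 899033 to 1259520 and upper quartiles from 16.3 to 17.6. The markers of a pluripotent stem cell were high in every library: the summed FPKM of Pou5f1, Sox2, Nanog, Sall4, Lin28a, Tdgf1, Utf1 and Dppa4 ran from 2012 in a 16-6 library to 3940 in S8. Fibroblast markers set the lines apart. The summed FPKM of 14 such genes was 1117 and 1225 in R1, 3083 and 3110 in 16-6, 177 and 179 in 32, 635 in S8 and 859 in T2. In these bulk samples, fewer cells of a type and less RNA per cell cannot be told apart.

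Promoter sequences are given for members that moved together and for the member with the widest spread. The RefSeq promoter table for GRCm38.p6 held 9 promoters for 7 of the 10 members, and held none for Tbx3, Klf5 and Prdm14. Shown are the 250 bases before the transcription start, 5′ to 3′ on the gene's strand, of Esrrb (2 starts), Zfp42 and Nr0b1, each lower than R1 in 16-6, S8 and T2, and of Tfcp2l1. Capitals mark matches, on either strand, to 6 short motifs: CCCACCC (bound by Klf factors), AAGGTCA (bound by Esrrb and Nr5a2), TTCNNNGAA (Stat factors), ATGCAAAT (the octamer of Pou5f1), CTTTGA (Tcf factors) and TATAAA (the TATA box).
Esrrb, first start, chr12:86360867-86361116, plus strand: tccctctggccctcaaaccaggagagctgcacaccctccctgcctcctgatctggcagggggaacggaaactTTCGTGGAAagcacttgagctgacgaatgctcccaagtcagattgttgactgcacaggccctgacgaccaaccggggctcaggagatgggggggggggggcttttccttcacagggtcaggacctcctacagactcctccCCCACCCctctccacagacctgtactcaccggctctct
Esrrb, second start, chr12:86421394-86421643, plus strand: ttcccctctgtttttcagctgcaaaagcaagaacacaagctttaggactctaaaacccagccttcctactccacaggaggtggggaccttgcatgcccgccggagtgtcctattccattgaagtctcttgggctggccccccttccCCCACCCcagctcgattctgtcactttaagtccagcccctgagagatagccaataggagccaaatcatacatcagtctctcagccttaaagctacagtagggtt
Zfp42, chr8:43307010-43307259, minus strand: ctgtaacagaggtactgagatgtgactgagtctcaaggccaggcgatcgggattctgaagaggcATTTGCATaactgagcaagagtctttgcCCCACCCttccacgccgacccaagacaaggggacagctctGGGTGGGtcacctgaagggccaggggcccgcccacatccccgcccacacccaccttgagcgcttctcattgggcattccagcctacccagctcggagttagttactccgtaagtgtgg
Nr0b1, chrX:86191525-86191774, plus strand: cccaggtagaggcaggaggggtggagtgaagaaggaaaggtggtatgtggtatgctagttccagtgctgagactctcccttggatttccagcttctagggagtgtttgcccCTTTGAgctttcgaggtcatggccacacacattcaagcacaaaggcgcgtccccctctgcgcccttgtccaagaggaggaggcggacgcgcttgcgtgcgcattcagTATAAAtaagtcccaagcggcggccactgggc
Tfcp2l1, chr1:118627695-118627944, plus strand: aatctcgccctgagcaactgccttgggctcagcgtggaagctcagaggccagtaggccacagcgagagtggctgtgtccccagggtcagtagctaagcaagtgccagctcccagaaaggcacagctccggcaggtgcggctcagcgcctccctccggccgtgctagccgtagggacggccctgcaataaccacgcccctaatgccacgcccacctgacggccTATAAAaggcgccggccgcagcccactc
CCCACCC stood in 5 of the 9 member promoters, those of Esrrb (both starts), Klf2, Nr5a2 (1 of its starts) and Zfp42, and in 15.8% of the 32851 promoters of the same length that were read. In Zfp42 it occurred on both strands, beside the octamer, which 1.6% of all promoters held. CTTTGA was found only in Nr0b1 among the members (13.8% of all promoters) and TTCNNNGAA only at the first Esrrb start (7.02%). AAGGTCA was in none of the 9, against 4.08% of all promoters. TATAAA was present for Nr0b1, Nr5a2 and Tfcp2l1 (12.4%). No match in a member overlapped another. These are matches of letters, with no binding measured.

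All 10 members were detected in all 8 libraries, and all 10 passed the filter on low values (1 FPKM reached in some library), as did 13693 genes. Klf2 and Zfp42 ranked highest: over the libraries Klf2 lay at percentiles 95.3 to 97.6 and Zfp42 at 91.7 to 98.8. Percentiles were taken among all gene rows with any signal in that library, tested or not. Prdm14 ranked lowest, at percentiles 41.0 to 58.9. Its values rested on the fewest fragments, 109 to 311 per library as implied by the Cufflinks confidence limits, against 3559 to 11649 for Esrrb. The 2 libraries of a line lay close together for most members. In line 32 the gap was widest for Klf2 (249 and 295) and Klf5 (174 and 207).

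**Figure D1:**
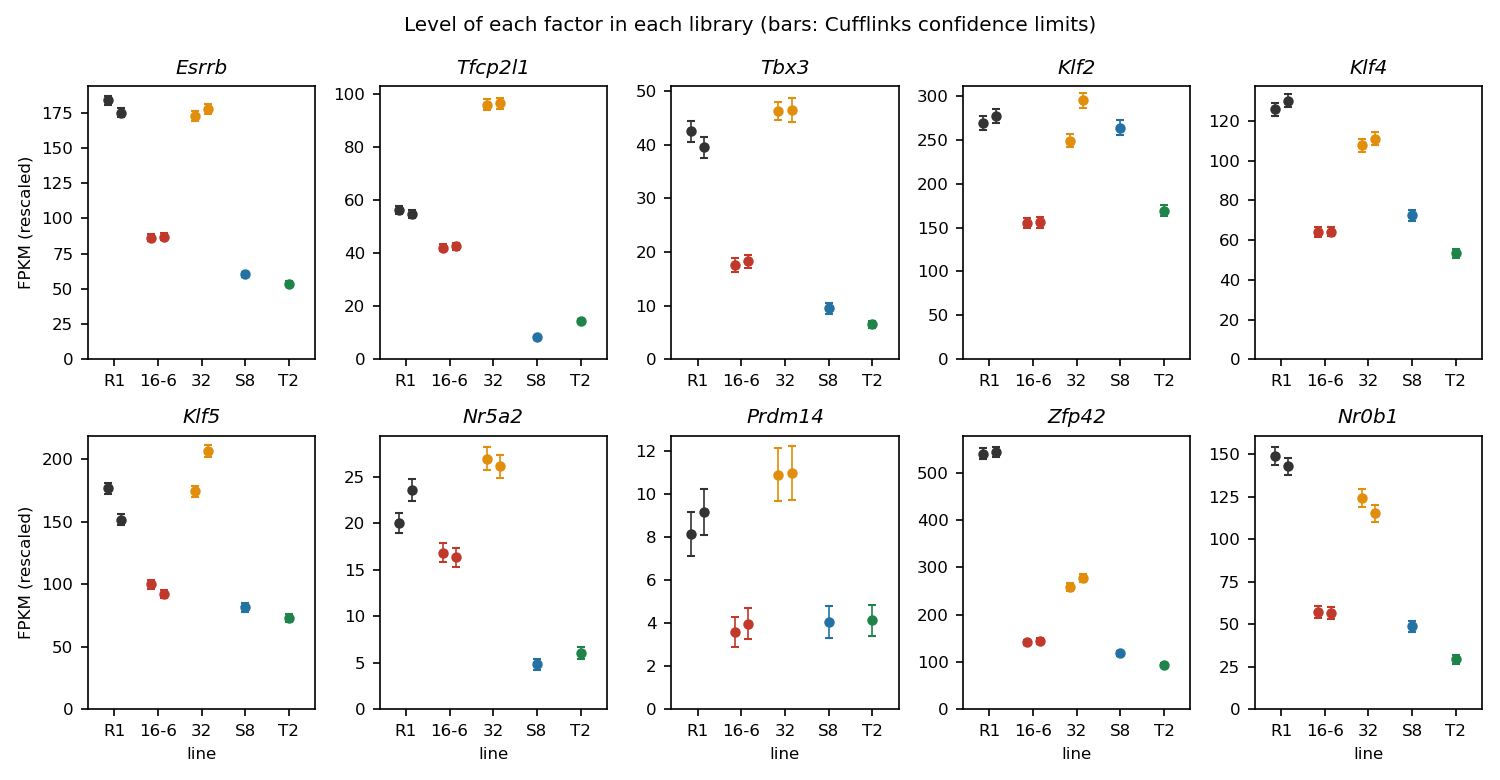
FPKM (rescaled, linear axis from 0) of the 10 factors in each of the 8 libraries, 1 panel per gene; points are libraries and bars are the Cufflinks confidence limits, 2 SD either side. R1 and 32 stand above 16-6, S8 and T2 in every panel but that of Klf2, where S8 (264) lies between the 2 libraries of 32.

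Differences were tested with limma on log2(FPKM + 1) across all 13693 genes, with p-values adjusted over all of them. A member was called higher or lower where the adjusted p was below 0.05 and the difference at least 2-fold (1 on the log2 scale). The differences below are on the log2(FPKM + 1) scale, which understates the change of the lowest gene, Prdm14.

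Of the nuclear receptors, Esrrb is an estrogen-related orphan receptor that binds DNA as a monomer and is a direct target of Tcf7l1 repression. Its gene lies at chr12:87702067-87862578 (mm9, plus strand). Its FPKM was 184 and 175 in R1, 86.4 and 87.1 in 16-6, 172 and 178 in 32, 60.2 in S8 and 53.4 in T2. R1 and 32 overlapped, and the other 3 lines lay below both. The difference from R1 was -1.04 ± 0.04 (SE) in 16-6 (limma adjusted p = 1.27e-04), -1.56 ± 0.05 in S8 (adjusted p = 6.92e-05) and -1.73 ± 0.05 in T2 (adjusted p = 8.43e-05), and it was -0.03 ± 0.04 in 32 (adjusted p = 0.486).

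Nr0b1 (Dax1) is an X-linked orphan receptor without the usual zinc-finger DNA-binding domain, which acts as a co-repressor of other factors, Oct4 and Nr5a2 among them (chrX:83437114-83441283, plus strand). The FPKM was 149 and 143 in R1, 57.0 and 56.3 in 16-6, 124 and 115 in 32, 48.6 in S8 and 29.3 in T2. No library of another line reached the R1 libraries, and T2 was the lowest. The difference of Nr0b1 from R1 was -1.35 ± 0.05 in 16-6 (limma adjusted p = 1.14e-04), -1.56 ± 0.06 in S8 (adjusted p = 9.11e-05) and -2.28 ± 0.06 in T2 (adjusted p = 7.93e-05). In 32 the difference of -0.28 ± 0.05 was past the p threshold (0.00608) but below 2-fold. Because Nr0b1 is on the X chromosome, sex-chromosome transcripts were read beside it. Xist was at 21.6 to 27.3 FPKM in R1, 22.1 and 23.2 in 16-6, 8.04 and 8.66 in 32, 5.44 in S8 and 5.25 in T2. The Y-linked Ddx3y was at 23.8 and 24.7 in R1, 8.91 and 9.44 in 16-6, 1.04 and 1.88 in 32, 7.67 in S8 and 13.3 in T2. Their part in the Nr0b1 result was not tested.

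Nr5a2 (Lrh-1) is an orphan receptor that binds regulatory regions of Pou5f1 (chr1:138740161-138857025, minus strand). It was at 20.1 and 23.5 FPKM in R1, 16.8 and 16.3 in 16-6, 27.0 and 26.1 in 32, 4.84 in S8 and 6.01 in T2. The S8 and T2 libraries were far below the rest, while 16-6 was only a little below R1. The differences from R1 were -1.96 ± 0.10 in S8 (limma adjusted p = 1.43e-04) and -1.70 ± 0.10 in T2 (adjusted p = 3.52e-04). In 16-6 the difference was -0.37 ± 0.08 (adjusted p = 0.0148), below 2-fold.

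Tfcp2l1, a CP2-family factor induced by LIF and Stat3, varied most over the lines (chr1:120524522-120581745, plus strand). Its FPKM was 56.3 and 54.6 in R1, 42.0 and 42.5 in 16-6, 95.8 and 96.4 in 32, 8.21 in S8 and 14.3 in T2. Every line stood clear of every other, and the mean of 32 was 11.7 times the value in S8. Against R1, the difference of Tfcp2l1 was -2.61 ± 0.04 in S8 (limma adjusted p = 1.13e-05) and -1.88 ± 0.04 in T2 (adjusted p = 4.77e-05). In 32 it was 1.73 times the R1 mean, a difference of 0.78 ± 0.04 (adjusted p = 1.01e-04) that did not reach 2-fold.

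Tbx3, a T-box factor able to sustain self-renewal when overexpressed, had the next widest spread (chr5:120120678-120134610, plus strand, overlapped on the other strand by the annotated gene Gm2301). Its FPKM was 42.5 and 39.6 in R1, 17.6 and 18.3 in 16-6, 46.3 and 46.5 in 32, 9.50 in S8 and 6.51 in T2. The R1 and 32 libraries formed a high group and the order 16-6, S8, T2 ran down from there, each neighbouring pair past the p threshold. The difference of Tbx3 from R1 was -1.15 ± 0.05 in 16-6 (limma adjusted p = 1.56e-04), -2.0 ± 0.06 in S8 (adjusted p = 6.63e-05) and -2.48 ± 0.06 in T2 (adjusted p = 5.85e-05). The kit does not mark strand, so reads of Tbx3 and of Gm2301 cannot be told apart where they overlap.

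The 3 Krüppel-like factors are zinc-finger proteins that overlap in function in ESCs. Klf2 (chr8:74842961-74845553, plus strand) was the steadiest member. Its FPKM was 269 and 277 in R1, 155 and 156 in 16-6, 249 and 295 in 32, 264 in S8 and 169 in T2. It passed 2-fold in no comparison with R1: the differences were -0.81 ± 0.08 in 16-6 (limma adjusted p = 0.00133), -0.69 ± 0.10 in T2 (adjusted p = 0.00409), -0.05 ± 0.10 in S8 (adjusted p = 0.688) and -0.01 ± 0.08 in 32 (adjusted p = 0.930). S8, called lower than R1 for 7 other members, lay a little below both R1 libraries and between those of 32 for Klf2.

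Klf4, a target of LIF and Stat3 and one of the reprogramming factors (chr4:55540009-55545347, minus strand), was at 126 and 130.2 FPKM in R1, 64.1 and 64.3 in 16-6, 108 and 111 in 32, 72.6 in S8 and 53.3 in T2. No iPSC library, each of which carries the transgene, reached the level in R1. The difference was called in T2, at -1.25 ± 0.04 (limma adjusted p = 1.24e-04). It lay just outside the fold threshold in 16-6, at -0.99 ± 0.04 (adjusted p = 1.14e-04), and was -0.81 ± 0.04 in S8 (adjusted p = 1.60e-04).

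Klf5 (chr14:99697910-99712628, plus strand) was at 177 and 152 FPKM in R1, 100.1 and 92.1 in 16-6, 174 and 207 in 32, 81.4 in S8 and 73.1 in T2. The libraries of R1 and of 32 overlapped. Its difference from R1 was -1.15 ± 0.14 in T2 (limma adjusted p = 0.00212) and -1.0 ± 0.14 in S8 (adjusted p = 0.00230). The S8 value lay at the threshold: without R1 replicate 1 it was -0.89 and no longer called. In 16-6 the difference was -0.77 ± 0.11 (adjusted p = 0.00406).

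Prdm14, a PR-domain protein that represses Fgf receptor signalling and de novo DNA methylation (chr1:13103509-13117244, minus strand), was at 8.14 and 9.15 FPKM in R1, 3.58 and 3.96 in 16-6, 10.9 and 10.99 in 32, 4.05 in S8 and 4.13 in T2. 16-6, S8 and T2 lay together, at 43.6%, 46.9% and 47.7% of the R1 mean, and their neighbouring levels did not differ beyond the spread. The call in 16-6, at -1.02 ± 0.08 (limma adjusted p = 5.61e-04), was lost without R1 replicate 2 (-0.94) or without 16-6 replicate 1 (-0.96). The values in S8 (-0.93 ± 0.10) and T2 (-0.91 ± 0.10) lay just outside the fold threshold. In FPKM itself the R1 mean was 2.13 and 2.10 times the S8 and T2 levels, so the 1 added before the log kept both short of 2-fold.

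Zfp42 (Rex1), a zinc-finger protein related to Yy1 and the customary marker of the naive state (chr8:44380421-44392363, minus strand), was at 541 and 544 FPKM in R1, 141 and 144 in 16-6, 258 and 277 in 32, 119 in S8 and 92.9 in T2. Zfp42 was the only member for which R1 stood above line 32 by the 2 criteria. The differences from R1 were -1.92 ± 0.05 in 16-6 (limma adjusted p = 6.43e-05), -2.18 ± 0.06 in S8 (adjusted p = 4.92e-05), -2.53 ± 0.06 in T2 (adjusted p = 4.65e-05) and -1.02 ± 0.05 in 32 (adjusted p = 1.04e-04). The last was just past the fold threshold and fell to -0.96, short of it, without 32 replicate 1.

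**Figure D2:**
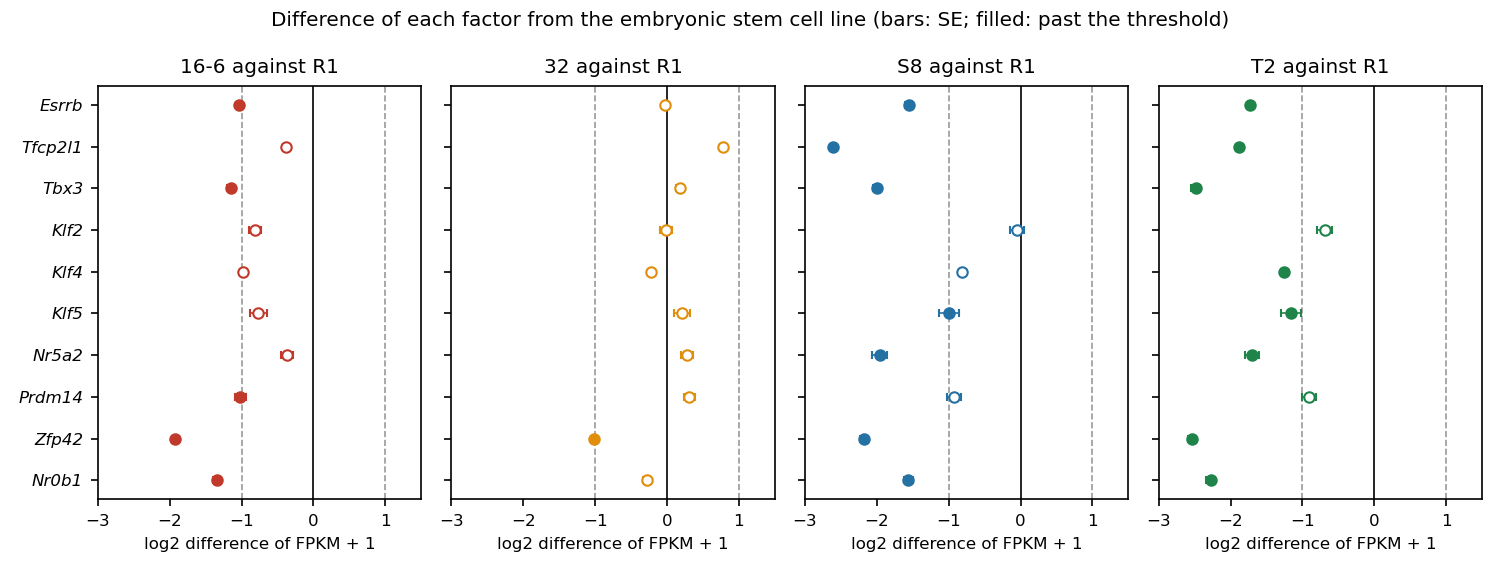
Difference of each factor from R1 in the 4 iPSC lines, on the log2 scale of FPKM + 1; bars are the SE, dashed lines mark 2-fold, and filled points passed the threshold. Filled points number 5 in 16-6, 1 in 32, 7 in S8 and 8 in T2, all on the lower side.

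The comparison of each iPSC line with the ESC line asks how close reprogrammed cells came to ESCs. R1 is the only ESC line, and the study describes its iPSC lines as sharing a genetic background and transgene integration sites. Cell type, line and any difference in genetic background therefore cannot be told apart here. All 4 comparisons share the R1 libraries and are given side by side. In 16-6, 5 of the 10 members were lower than R1 by the 2 criteria and none was higher, where 3.53% of all tested genes were called lower. The 5 were Esrrb, Nr0b1, Prdm14, Tbx3 and Zfp42, and the median difference of the 10 was -1.0 against -0.03 over all genes. In 32, 1 member was lower (8.23% of all genes), Zfp42, and the median difference was 0.08 against -0.02. In S8, 7 were lower (9.74% of all genes), namely Esrrb, Klf5, Nr0b1, Nr5a2, Tbx3, Tfcp2l1 and Zfp42, with a median of -1.56 against -0.03. In T2, 8 were lower (6.54% of all genes), the 7 named for S8 and Klf4, with a median of -1.71 against -0.03. No member was called higher than R1 in any line by limma. At an unadjusted p below 0.05, 4 members were higher in 32 and none in the other 3 lines; the 4, Tfcp2l1, Tbx3, Nr5a2 and Prdm14, were also past an adjusted p of 0.05, as were 28.6% of all genes in that direction, though the Tbx3 value turned to -0.03 with equal totals over genes of at least 300 bases and to -0.09 at an equal level of 8 pluripotency markers.

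The fibroblast markers also differed between the lines. Their summed FPKM was highest in 16-6, at 2.64 times the R1 mean, and lower than in R1 in S8 and T2, at 0.542 and 0.733 times. Line 32 had 0.152 times the R1 sum. Not all of the 14 markers followed the sum: in 16-6 against R1, 8 rose and 2 fell, the latter being Dcn (-2.63) and Lum (-2.72), both proteoglycans of the fibroblast matrix. In S8 and in T2, 6 were called lower and 1 higher. The latter was Acta2 (1.21 and 1.63), named after its values were seen. In 32, 12 were lower and none was higher. The part of the fibroblast markers in the results for the members was not tested. Given beside them are 2 measurements relative to pluripotency markers, neither of which measures feeder content. First, relative to Pou5f1 in the same library, 8 of the 10 members stood below both R1 libraries in both 16-6 libraries, at 33.3% to 96.8% of the R1 mean over the 10, while Tfcp2l1 and Nr5a2 overlapped with R1. In S8 and T2 all 10 stood below R1 on this measure, at 9.00% to 58.7% and 13.5% to 52.7%. The share of all genes below R1 on this measure was not computed, so these counts have no background. Pou5f1, which is Oct4 and so also among the transgenes, varied itself: its FPKM was 605 and 636 in R1, 485 and 492 in 16-6, 661 and 668 in 32, 1020.2 in S8 and 730 in T2. Its log2 difference from R1 was 0.72 in S8 and 0.23 in T2, so the ratios there are lower than the levels themselves. In S8 the levels themselves of Klf2 and Tfcp2l1 were at 96.5% and 14.8% of the R1 mean. Pou5f1 was at -0.34 in 16-6, where the ratios are higher than the levels. Second, with libraries scaled to an equal level of the 8 pluripotency markers, an alternative chosen after seeing the data, 2 members were lower than R1 in 16-6 (Nr0b1 and Zfp42), 1 in 32, 9 in S8 and 8 in T2. Of the 13693 tested genes, 303, 1542, 2211 and 931 were lower in these lines under that scaling. In the reported fit the numbers were 484, 1127, 1334 and 896.

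**Figure D3:**
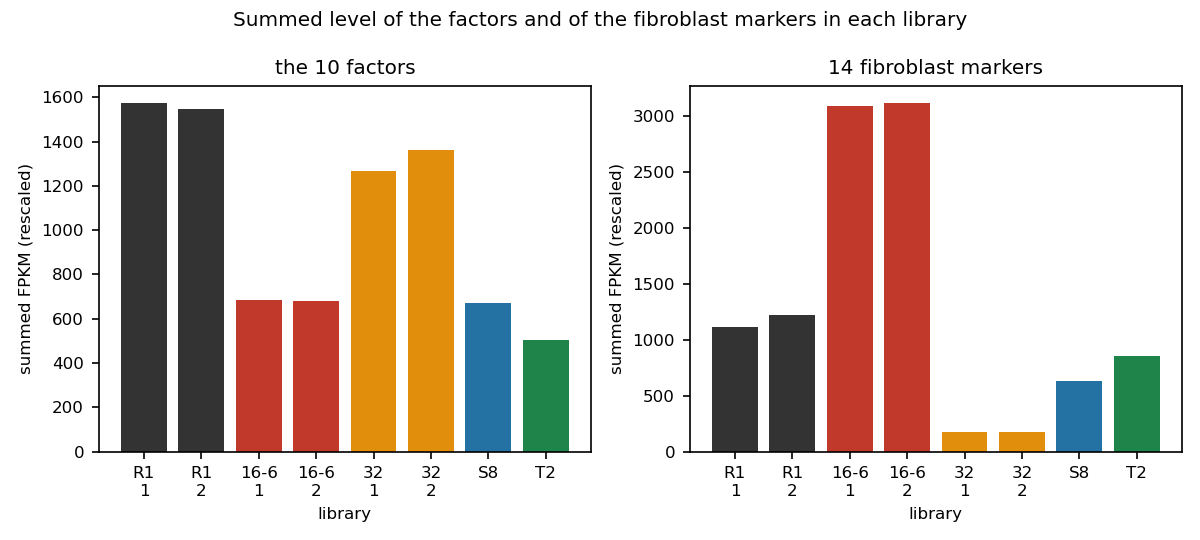
Summed FPKM (rescaled, axes from 0) of the 10 factors, left, and of 14 fibroblast marker genes, right, in each library; bars are single libraries. The factors sum to 1548 and 1572 in R1 and to 502 in T2, and the fibroblast markers are highest in 16-6 (3083 and 3110) and lowest in 32 (177 and 179).

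Lines 16-6 and 32 are both of mesodermal origin, and their comparison asks whether lines of 1 germ layer are alike. In 16-6, 5 members were lower than in 32 (1.09% of all genes were): Esrrb (-1.0), Tfcp2l1 (-1.17), Tbx3 (-1.32), Prdm14 (-1.33) and Nr0b1 (-1.07). All 10 were lower at an adjusted p below 0.05 with no fold minimum, where 32.9% of all genes were. The median difference was -0.99, against -0.06 over all genes. These 2 lines were also the extremes in fibroblast markers, all 14 of which were higher in 16-6, with a median difference of 4.30. The count depended on scaling: it was 3 after quantile normalization, 2 with equal totals over genes of at least 300 bases and 0 at an equal level of the 8 pluripotency markers. Of the 13693 tested genes, 260, 86 and 34 were lower in 16-6 under these scalings, against 149 in the reported fit. Esrrb also fell short of 2-fold without 16-6 replicate 1 or without 32 replicate 2 (-0.98).

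The ectodermal line S8 and the endodermal line T2 did not differ by the 2 criteria in any member, where 2.75% of all genes did. By limma, 7 of the 10 differed at an unadjusted p below 0.05, and 6 at an adjusted p below 0.05 alone (34.5% of all genes). Nr0b1 (0.71 ± 0.07), Klf2 (0.64 ± 0.12), Tbx3 (0.48 ± 0.07), Klf4 (0.44 ± 0.05) and Zfp42 (0.35 ± 0.07) were higher in S8. Tfcp2l1 was higher in T2 (-0.73 ± 0.05). Each line had 1 library, and its spread was taken from the other lines.

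The iPSC lines of mesodermal origin were also set against S8 and T2. In 32, 8 members were higher than in S8 (4.56% of all genes) and 9 higher than in T2 (2.79%), Klf2 and Klf4 being short of 2-fold against S8 and Klf2 against T2. In 16-6, 2 were higher than in S8 (10.4%), Tfcp2l1 (2.23) and Nr5a2 (1.59), and 3 higher than in T2 (6.39%), Tfcp2l1 (1.498), Tbx3 (1.33) and Nr5a2 (1.33).

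When the 5 lines were placed in order for each member, R1 and 32 took the top 2 places for all 10. R1 was first for Esrrb, Klf2, Klf4, Zfp42 and Nr0b1, and 32 for Tfcp2l1, Tbx3, Klf5, Nr5a2 and Prdm14. Line 16-6 was in place 3 for 7 members and T2 last for 6. The share of all genes with these places was not computed. By the 2 criteria, 4 members were lower than R1 in 16-6, S8 and T2, as were 1.75% of all genes. Against 32, 5 members were lower in 16-6, S8 and T2, as were 0.511% of all genes. For 4 members, Tfcp2l1, Tbx3, Nr5a2 and Prdm14, line 32 lay above R1 and another line below it, each at an adjusted p below 0.05, with at least 2-fold between the 2 lines; such opposite directions, either way round, were found for 9.98% of all genes. Of the 40 pairs of neighbouring levels, 29 differed at an adjusted p below 0.05 with no fold minimum, as did 30.8% of such pairs over all tested genes. R1 and 32 were not distinguished in Esrrb, Klf2 and Klf5. S8 and T2 were not distinguished in Esrrb, Klf5, Nr5a2 and Prdm14, nor T2 and 16-6 in Klf2. For Klf2, 32 and S8, and for Klf5, 16-6 and S8, did not differ beyond the spread, nor did S8 and 16-6 for Prdm14. The spread from the highest to the lowest line was smallest for Klf2 (0.81 on the log2 scale) and largest for Tfcp2l1 (3.40).

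For each member with a spread of at least 1, the 3 genes of most similar profile were taken as those with the smallest root mean square difference over the 5 line means, each gene centred on its own mean, among 7596 genes with a mean FPKM of at least 10. For Zfp42 these were Triml2 (0.22 on the log2 scale), Nr0b1 (0.27) and Triml1 (0.27). Triml1 and Triml2, which encode tripartite motif family-like proteins, lie beside Zfp42 on chromosome 8 (mm9), ending 153.6 kb and 101.2 kb before the Zfp42 locus. Triml2 was at 95.7 and 97.3 FPKM in R1, 16.9 and 20.5 in 16-6, 40.02 and 38.2 in 32, 22.6 in S8 and 17.8 in T2. Triml2 was chosen for this profile, so its order of lines, with R1 first and 32 second as for Zfp42, is a description and was not tested.

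Members were also among each other's nearest profiles. Esrrb was second for Nr0b1 (0.21) and Klf5 among the 3 nearest for Prdm14 (0.16). Jam2, which encodes a junctional adhesion molecule, was first for Nr0b1 (0.13) and among the 3 nearest for Esrrb (0.14). Among the genes ranked first for a member, the smallest differences were those of Lrrc34 for Tbx3 (0.05), Gstm1 for Klf4 (0.05) and Tdh, the threonine dehydrogenase highly active in mouse ESCs, for Klf5 (0.06). Chmp4c was nearest to Prdm14 (0.08), Ephx2 to Esrrb (0.14) and Rmi1 to Nr5a2 (0.15).

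Of 17 other genes of the naive network, 3 were lower than R1 in 16-6, none in 32, 5 in S8 and 4 in T2, while none, 1, 2 and 1 were higher. Of all genes, 3.53%, 8.23%, 9.74% and 6.54% were lower and 3.58%, 1.54%, 6.93% and 3.95% higher in these lines. At limma's unadjusted p below 0.05 and no fold minimum, 14, 5, 7 and 9 of the 17 were lower in 16-6, 32, S8 and T2, and 2, 8, 8 and 7 were higher. Even at limma's adjusted p below 0.05, 29.9%, 32.9%, 34.6% and 30.9% of all genes were lower and 25.7%, 28.6%, 32.1% and 27% higher. The median differences of the 17 were -0.59, 0.22, 0.40 and -0.34. Tcl1, a co-activator of Akt, had the widest spread, with -1.42 in 16-6, 0.29 in 32, -1.52 in S8 and -2.25 in T2. Jam2 was at -1.03, -0.18, -1.60 and -2.11 in the same order. Chosen after their values were seen, other calls were Tet1 and Nanog, lower in S8 (-2.0 and -1.11), Tet1, lower in T2 (-1.13), Utf1 and Gbx2, higher in S8 (1.46 and 1.10), and Cdh1, higher in T2 (1.07). Tet2, a 5-methylcytosine dioxygenase, was at -0.89, 0.01, -2.08 and -1.40, so that the first was below the fold threshold. Dppa3 (Stella) went the other way in 32, where it was higher than R1 by 2.16 ± 0.07 (limma adjusted p = 4.6e-05).

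Genes of the formative and primed epiblast, the states that follow the naive one, were called higher more than lower. Of 16 listed, 15 were tested, and 5 were higher than R1 in 16-6 (3.58% of all genes), 5 in 32 (1.54%), 9 in S8 (6.93%) and 8 in T2 (3.95%). At limma's unadjusted p below 0.05 and no fold minimum, 8, 8, 12 and 13 were higher in 16-6, 32, S8 and T2, and 6, 7, 2 and 1 were lower. At limma's adjusted p below 0.05, 25.7%, 28.6%, 32.1% and 27% of all genes were higher and 29.9%, 32.9%, 34.6% and 30.9% lower. The 1 called lower was Otx2, in 16-6 (-1.60), named after its value was seen. Otx2 was also below R1, by less than 2-fold, in 32 (-0.82), S8 (-0.34) and T2 (-0.49). Pou3f1 (Oct6), a POU factor of the primed epiblast, was at 7.38 and 8.72 FPKM in R1, 17.1 and 16.0 in 16-6, 13.8 and 13.5 in 32, 125 in S8 and 82.3 in T2, with differences of 3.81 ± 0.10 in S8 and 3.21 ± 0.10 in T2 (limma adjusted p = 4.9e-05 and 9.9e-05). Sox3 rose in the same lines, by 3.39 and 3.17. Fgf8 was higher in all 4 lines, by 2.95 in 16-6, 2.64 in 32, 1.73 in S8 and 3.32 in T2. Brachyury (T), the mesoderm factor, was instead higher in 16-6 and 32, by 2.05 and 2.64, and was at -0.96 in S8 and 0.32 in T2. The summed FPKM of this list was 1721 in S8 and 1384 in T2, against 563 and 628 in R1.

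**Figure D4:**
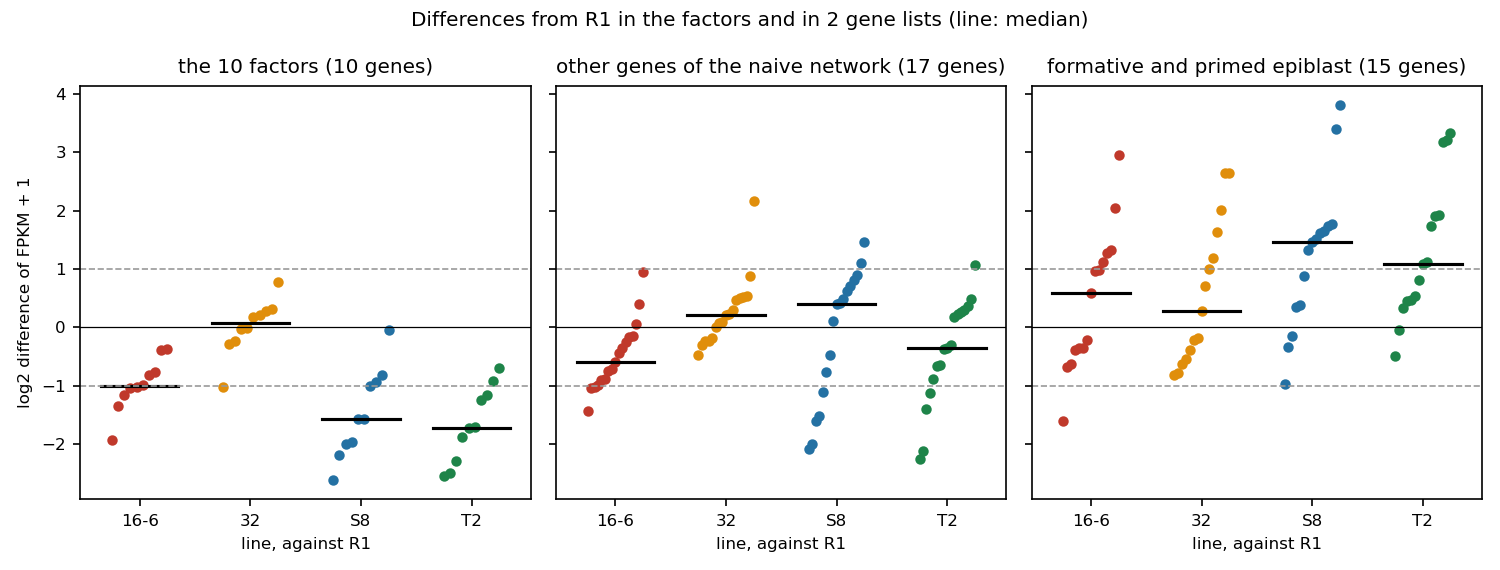
Log2 difference of FPKM + 1 from R1 in the 4 iPSC lines for the 10 factors, 17 other genes of the naive network and 15 genes of the formative and primed epiblast; points are genes, sorted within each line, black lines are medians and dashed lines mark 2-fold. The median of the factors is -1.56 in S8 and -1.71 in T2, where that of the formative and primed list is 1.46 and 1.08.

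Upstream of the members, the 14 listed genes of LIF, Wnt and Fgf signalling were also read: 1 was lower than R1 in 16-6, none in 32, 4 in S8 and 2 in T2, and none was higher, beside the 3.53%, 8.23%, 9.74% and 6.54% of all genes that were lower. At limma's unadjusted p below 0.05 and no fold minimum, 7, 6, 10 and 8 were lower in 16-6, 32, S8 and T2, and 3, 5, 2 and 4 were higher. In either direction, 55.6%, 61.5%, 66.7% and 57.9% of all genes passed even an adjusted p of limma below 0.05. Lifr, the LIF receptor, was at 22.0 and 22.8 FPKM in R1, 8.64 and 8.97 in 16-6, 16.5 and 17.6 in 32, 8.20 in S8 and 7.82 in T2. Its differences from R1 were -1.25, -0.37, -1.34 and -1.41. Il6st (gp130, its co-receptor) and Jak1, the kinase below them, were lower in S8, at -1.51 and -1.47, and at -0.95 and -1.0 (just outside the threshold) in T2 did not reach 2-fold. Spry4, a feedback inhibitor of receptor tyrosine kinase signalling, was lower in S8 (-1.49) and T2 (-1.06). In 32, Jak1 (-0.98) and Spry4 (-0.94) also lay just outside the fold threshold, with limma adjusted p of 1.04e-04 and 1.00e-04.

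Of the family relatives of the members, 26 were listed. Of these, 20 were tested. One was lower than R1 in 16-6, none in 32, 2 in S8 and 1 in T2, and 2 and 1 were higher in S8 and T2. Of all genes, 3.53%, 8.23%, 9.74% and 6.54% were lower in 16-6, 32, S8 and T2, and 6.93% and 3.95% were higher in S8 and T2. At limma's unadjusted p below 0.05 and no fold minimum, 9, 9, 11 and 9 were lower in 16-6, 32, S8 and T2, and 6, 6, 6 and 7 were higher. Many genes passed so mild a threshold: 55.6%, 61.5%, 66.7% and 57.9% of all genes differed at an adjusted p of limma below 0.05. Klf8 had the widest spread and was lower in S8 (-1.39) and T2 (-1.20). Klf12 was lower in S8 (-1.70), and Klf11 in 16-6 (-1.36). Klf3 passed 2-fold in no line against R1. The relatives that rose were Klf16 in S8 (1.23) and Yy1, the relative of Zfp42, in S8 (1.19) and T2 (1.15), again named after their values were seen. Esrrg and Nr5a1, the closest relatives of Esrrb and Nr5a2 on the list, were below 1 FPKM in all 8 libraries. Some markers of primitive endoderm and trophoblast were low: Gata4 stayed at or below 1.03 FPKM, Sox17 at or below 0.28 and Cdx2 at or below 1.31. Others on these lists were higher. Tfap2c ran from 26.3 FPKM in S8 to 66.1 in a 32 library. Dab2 reached 13.2 and Pdgfra 9.92 in R1, and Krt7 reached 4.29 in S8. Of 5 primitive endoderm markers tested, Pdgfra and Dab2, which fibroblasts also express, were lower than R1 in 32, S8 and T2, and of 5 trophoblast markers, Tfap2c was higher in 32 (1.12) and Krt7 in S8 (1.12).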

How the data were processed

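RNA-Seq values of 8 libraries were read from the authors' Cufflinks gene tables, which give FPKM with confidence limits for 22878 gene rows. Per the labels, reads were aligned with TopHat2 2.0.4 (Bowtie) and the deposited FPKM were made with Cufflinks 2.0.0; the study's methods name Cufflinks 2.0.2, mm9 and uniquely aligned reads. The labels speak of embryo tissue and a TruSeq RNA kit, the methods of cell pellets. Deposited FPKM summed to between 1.14408e+10 and 1.60283e+10 per library, so all were divided by 12725.7. The fragment depth of a value was implied from its limits, taken as 2 SD from the FPKM. The precision this gives covers counting error only.

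Groups came from the labels. Rows that reached 1 FPKM in some library, 13693 in number, were tested with limma 3.58.1 in R 4.3.3 (lmFit, eBayes with trend) on log2(FPKM + 1), all 5 lines in 1 fit, with Benjamini-Hochberg adjustment over all genes. S8 and T2, with 1 library each, were assumed to vary like the others. A call needed an adjusted p below 0.05 and a difference of at least 2-fold. The fit was tested on simulated data. Replicate libraries differed by more than counting noise (variance 1.69, 1.39 and 1.49 times Poisson in R1, 16-6 and 32, over genes whose implied fragments were whole within 0.05), and were kept as separate samples.

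The members, gene lists and tests were chosen with earlier results of these data known. All 119 listed symbols were found, 3 of them under an older symbol matched through RefSeq synonyms. By rule, at most 4 genes of each other list are named, those with the largest range over the line means, plus genes that a member's result turns on. Esrrg, Nr5a1, Gata4, Sox17, Cdx2, Xist, Pou5f1 and Triml2 values are given for that last reason. Genes marked as chosen or named after their values were seen fall outside these rules. Some of the genes picked by these rules are not reported here. Coordinates are mm9 from the files, counted from 1; promoters are RefSeq's for GRCm38.p6, matched by symbol. Alternatives were another pseudocount, filter, normalization, scaling, fold minimum or variance model, leaving out libraries, and a replicate block.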

Additional observations from a re-analysis of the deposited data

Results flagged for a closer look

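In all, 4 members moved away from R1 in opposite directions in line 32 and in other lines, with an adjusted p of limma below 0.05 for both and a difference between the lines that was also at least 2-fold. Of all tested genes, 9.98% did so. All values are log2 differences of FPKM + 1. Tfcp2l1 was higher than R1 in 32 (0.78) and lower in 16-6 (-0.38), S8 (-2.61) and T2 (-1.88): 16-6 minus 32 was -1.17 (adjusted p = 2.11e-05), 32 minus S8 was 3.40 (adjusted p = 3.96e-06) and 32 minus T2 was 2.665 (adjusted p = 1.02e-05). Tbx3 was at 0.18 in 32, at -1.15 in 16-6, -2.0 in S8 and -2.48 in T2: 16-6 minus 32 was -1.32 (adjusted p = 4.30e-05), 32 minus S8 was 2.18 (adjusted p = 7.96e-05) and 32 minus T2 was 2.66 (adjusted p = 4.27e-05). The sign of the Tbx3 value in 32 turned under other scalings, given under the processing.

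Nr5a2 was at 0.28 in 32, at -1.96 in S8 and -1.70 in T2: 32 minus S8 was 2.24 (adjusted p = 1.58e-04) and 32 minus T2 was 1.97 (adjusted p = 3.40e-04). In 16-6 it was at -0.37, and 16-6 minus 32 was -0.65 (adjusted p = 0.00193), past the p threshold but below 2-fold. Prdm14 was at 0.31 in 32, at -1.02 in 16-6, -0.93 in S8 and -0.91 in T2: 16-6 minus 32 was -1.33 (adjusted p = 1.66e-04), 32 minus S8 was 1.24 (adjusted p = 4.81e-04) and 32 minus T2 was 1.22 (adjusted p = 8.77e-04). No group has 4 libraries, so no library was examined as an outlier.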

How the results depend on the processing

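Of 960 recomputed member differences, 889 kept their direction and side of the threshold, 39 gained a call, 19 lost one and 13 changed sign. Pseudocount: at 0.1, 2 member differences gained a call. Fold minimum: without it the members called were 10 in 16-6, 7 in 32, 9 in S8, 10 in T2, 10 in 16-6 against 32 and 6 in S8 against T2. Of all tested genes, 55.6%, 61.5%, 66.7%, 57.9%, 60.4% and 34.5% were called in the same order. Scaling: in 16-6 against 32 the count was 3 after quantile normalization and 2 with equal totals over genes of at least 300 bases. With an equal level of 8 pluripotency markers, chosen after seeing the data, it was 0. Of the 13693 tested genes, 260, 86 and 34 were lower there under these scalings, against 149 in the reported fit. Equal markers also gave 2 members in 16-6 against R1 (303 of all genes lower) and 1 in S8 against T2 (Tfcp2l1, with 673 of all genes called). The cause was not tested. Leaving out 1 library gave 4 to 6 members in 16-6, 0 to 1 in 32 (0 without 32 replicate 1), and 4 to 6 in 16-6 against 32.

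Sign changes: in 32 against R1, Tbx3 became -0.0326 (equal totals) and -0.0934 (equal markers) and Klf5 -0.0214 (quantile) and -0.0616 (equal markers). Leaving out 1 library, Esrrb there ranged from -0.0698 (without R1 replicate 2) to 0.00044 (without R1 replicate 1) and Klf2 from -0.132 to 0.112 (without 32 replicate 2 and 1). In S8 against T2, Esrrb became -0.0843 and -0.164 (equal totals, equal markers), Klf5 -0.0276, -0.102 and -0.182 (quantile, equal totals, equal markers) and Prdm14 0.114 (quantile).

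Genes called over the table: with a pseudocount of 0.1, 1690 in 16-6 (974 in the reported fit), 2258 in 32 (1338), 2198 in T2 (1437) and 794 in S8 against T2 (376); with only genes that reached 1 FPKM in all 8 libraries, 565, 740 and 940 in 16-6, 32 and T2, and 859 in 16-6 against 32 (1412); in S8 against T2, 571 with equal totals and 673 with equal markers, and 2476 in 16-6 against 32 with equal markers. With no fold minimum the counts were 7610, 8428, 9127 (2283 in the reported fit) and 7932 in 16-6, 32, S8 and T2, 8265 in 16-6 against 32 and 4725 in S8 against T2. Scaling also moved the median difference of all genes: equal totals to -0.20 in 32, -0.25 in S8 and -0.17 in S8 against T2; equal markers to 0.26 in 16-6, -0.26 in 32, -0.33 in S8, 0.45 in 16-6 against 32 and -0.23 in S8 against T2. The share of calls that were lower went from 49.7% to 23.9% in 16-6 (equal markers), from 84.2% to 63.9% in 32 (quantile), from 58.4% to 79.8% and 85.5% in S8 and from 66.5% to 90.4% and 93.3% in S8 against T2 (equal totals, equal markers), and from 10.6% to 21.1% in 16-6 against 32 (quantile). With a replicate block the members called stayed at 5 in 16-6, 1 in 32 and 5 in 16-6 against 32, with 965, 1339 and 1410 genes called. Same-numbered libraries did not deviate together (r of -0.10, 0.00 and 0.03), so the numbers did not pair them.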

Other observations

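Per unit of Pou5f1 in the same library, Tfcp2l1 and Nr5a2 in 16-6 lay at 96.7% and 96.8% of the R1 mean and overlapped with R1, whereas Zfp42 lay at 33.3% and Nr0b1 at 49.3%. In 32, Tfcp2l1, Nr5a2 and Prdm14 stood above both R1 libraries on this measure, at 162%, 114% and 118%, while Esrrb, Klf4, Nr0b1 and Zfp42 stood below them, at 91.0%, 79.8%, 76.6% and 46.1%. In S8, Tfcp2l1 was at 9.00% on this measure and at 14.8% of the R1 mean without it, as Pou5f1 was at 1020.2 FPKM in S8 and at 605 and 636 in R1. No test was made of these ratios, and no share over all genes was computed for them.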
